A study of Mus musculus with 23 samples.

Results

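Lgr6, Stbd1, AA465934, Cd59a, Ccl27a, Hddc3 and A830036E02Rik are 7 of the 55335 genes in the count table of mouse hippocampus, of which 34928 had a count in some library. They were chosen by the size of the difference in counts between 3xTg and wild-type (WT) mice in these libraries, so their strain differences are given below as a description, without a test. The study sequenced RNA of the whole hippocampus of 3xTg mice, a model of Alzheimer's disease, and of WT strain controls, all female. The question was how the strain, and an inhibitor of the enzyme stearoyl-CoA desaturase (SCD) that introduces a double bond into saturated fatty acids, change gene expression. At 8 months the mice were untreated (WT-8M and 3xTg-8M, n = 4 each). At 10 months they had received a 28-day infusion into the ventricles of the brain, either of the DMSO vehicle at 0.8% (WT-D and 3xTg-D, n = 4 each) or of the inhibitor at 80 µM in the same vehicle (WT-S, n = 3, and 3xTg-S, n = 4). WT mice are labelled C57BL/6J x 129S1, a hybrid background whose mice need not be genetically identical. The 3xTg mice are labelled as a B6;129 strain and carry, among their alleles, human APP and tau transgenes driven in neurons by a Thy1 element. The WT mice were not littermates of the 3xTg mice, and every strain comparison therefore holds the disease alleles and the rest of the genetic background together. The 8-month and 10-month libraries differ in age, surgery and infusion at once, and the labels state that each age was compared only within itself. The labels of the 8-month libraries also carry an L and another series of animal numbers, whose meaning is not given.

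The 7 genes belong to unrelated families. Lgr6 is a cell-surface receptor for R-spondins, secreted proteins that raise Wnt signalling. Stbd1 binds glycogen and takes part in its transfer to lysosomes. Cd59a is a membrane-anchored inhibitor of the terminal complement complex, which protects cells from lysis by their own complement. Ccl27a is a chemokine, a ligand of the receptor Ccr10 that is best known from skin. Hddc3, also called MESH1, is a phosphatase that acts on NADPH and on the nucleotide ppGpp. AA465934 and A830036E02Rik are long noncoding RNAs, the latter annotated as antisense to the keratin gene Krt12.

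The stretches before the start sites of 4 of these genes are shown because the results turn on them. A830036E02Rik was nearly silent in 3xTg, and AA465934 and Stbd1 had WT libraries that stood apart. Hddc3 was the only gene of the 7 whose strains overlapped at 8 months. Each stretch is the 250 bases before the RefSeq start on the gene's own strand (GRCm38.p6), written 5′ to 3′. Capitals mark motifs, each searched on both strands. The TATA box was spelled TATAAA, the CCAAT box by the letters of its name, the GC box was spelled GGGCGG and the E-box was spelled CACGTG. The A830036E02Rik stretch lies at chr11:99416993-99417242 on the plus strand and begins inside the span that Gencode gives the gene. The AA465934 stretch is chr11:83291449-83291698, the Stbd1 stretch is chr5:92602801-92603050 and the Hddc3 stretch is chr7:80342887-80343136, all on the plus strand.
A830036E02Rik: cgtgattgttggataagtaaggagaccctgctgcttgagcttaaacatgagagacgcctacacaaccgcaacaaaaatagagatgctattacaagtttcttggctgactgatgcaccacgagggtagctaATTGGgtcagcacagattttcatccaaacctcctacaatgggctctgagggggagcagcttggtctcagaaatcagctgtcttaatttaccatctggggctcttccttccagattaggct
AA465934: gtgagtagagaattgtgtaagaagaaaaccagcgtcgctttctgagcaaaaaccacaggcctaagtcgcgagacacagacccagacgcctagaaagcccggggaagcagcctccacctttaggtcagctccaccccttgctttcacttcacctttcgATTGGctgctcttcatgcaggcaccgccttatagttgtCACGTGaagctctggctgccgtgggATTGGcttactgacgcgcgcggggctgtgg
Stbd1: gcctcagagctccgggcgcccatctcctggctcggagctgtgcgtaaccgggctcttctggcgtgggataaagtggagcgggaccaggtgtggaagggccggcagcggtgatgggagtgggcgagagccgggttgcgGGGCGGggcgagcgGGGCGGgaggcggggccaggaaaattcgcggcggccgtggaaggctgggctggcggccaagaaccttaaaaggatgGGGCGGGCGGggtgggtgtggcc
Hddc3: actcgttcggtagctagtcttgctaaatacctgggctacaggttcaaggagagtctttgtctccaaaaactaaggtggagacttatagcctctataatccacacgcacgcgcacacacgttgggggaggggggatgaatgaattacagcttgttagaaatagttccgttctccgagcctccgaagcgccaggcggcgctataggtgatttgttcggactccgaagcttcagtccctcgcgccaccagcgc
The A830036E02Rik stretch held 1 CCAAT box, on the reverse strand, and 4 CpG dinucleotides, where the median of 32536 RefSeq promoters of this length is 6. AA465934 had 2 CCAAT boxes on the reverse strand, 1 E-box and 14 CpG. Stbd1 had 4 GC boxes, 2 of them overlapping, and 24 CpG, more than 87.9% of all promoters. Hddc3 had 17 CpG and none of these letters. A TATA box was found in 12.3% of all promoters, a CCAAT box in 33.8%, a GC box in 33.0% and an E-box in 6.0%. A match is a description of the letters and not a binding site. All 7 genes had a RefSeq entry, the 3 others being Lgr6 with 16 CpG, Cd59a with 0 and Ccl27a with 4 to 12 at its 3 starts.

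Values below are in CPM, the reads of a gene relative to the scaled total of its library. A log2 fold change is 3xTg over WT, from a fit of all genes, with its standard error (SE). Lgr6 (ENSMUSG00000042793.13, chromosome 1, 134983301 to 135105276, minus strand, protein-coding) was higher in 3xTg. WT libraries read 4.63, 3.73, 3.53 and 3.51 CPM at 8 months, 4.13, 4.14, 3.40 and 3.61 with vehicle and 3.64, 4.10 and 3.69 with inhibitor. 3xTg libraries read 21.6, 20.6, 20.9 and 13.7 CPM at 8 months, 12.9, 17.9, 19.5 and 20.7 with vehicle and 17.1, 13.9, 22.04 and 15.7 with inhibitor. All 12 libraries of 3xTg lay above all 11 of WT, and the WT values stayed within a narrow band in every group. The log2 fold change of Lgr6 was 2.30 (SE 0.16) at 8 months, 2.21 (SE 0.15) with vehicle and 2.17 (SE 0.17) with inhibitor. Of the 7 genes it came closest to a constant strain difference, as the plot of levels by library shows.

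**Figure D1:**
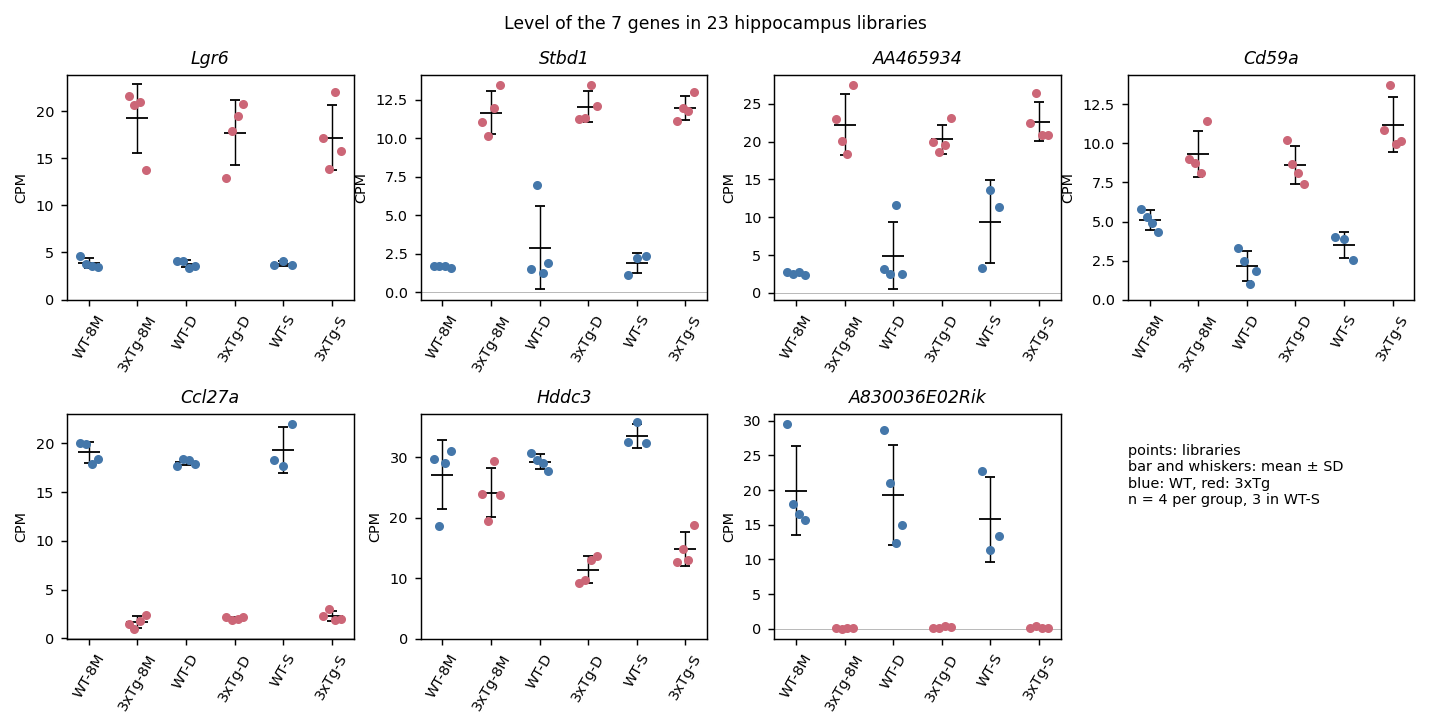
Level of each gene in CPM (vertical axis, linear) in the 6 groups, with WT in blue and 3xTg in red, a point for each library, and the mean ± SD in black (n = 4 per group, 3 in WT-S). Hddc3 is the only panel in which the strains overlap at 8 months, AA465934 has 3 WT libraries far above the other WT ones, at 11.4 to 13.7 CPM, and Stbd1 has 1, at 6.94 CPM.

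Stbd1 (ENSMUSG00000047963.7, chromosome 5, 92603041 to 92606579, plus strand) was also higher in 3xTg. WT libraries read 1.74, 1.72, 1.73 and 1.56 CPM at 8 months, 1.51, 6.94, 1.27 and 1.90 with vehicle and 1.16, 2.23 and 2.34 with inhibitor. 3xTg libraries read 11.1, 10.2, 11.9 and 13.5 CPM at 8 months, 11.3, 11.3, 13.5 and 12.1 with vehicle and 11.1, 11.95, 11.8 and 13.0 with inhibitor. The strains did not overlap, but WT-D replicate 2 was more than halfway from the other WT libraries to the 3xTg level. Stbd1 differed by a log2 fold change of 2.79 (SE 0.13), 2.06 (SE 0.39) and 2.63 (SE 0.19) in the same order, and 2.94 (SE 0.16) with vehicle when WT-D replicate 2 was left out.

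Cd59a (ENSMUSG00000032679.12, chromosome 2, 104095801 to 104115354, plus strand) was higher in 3xTg in every comparison, with a smaller log2 fold change at 8 months than at 10 months. WT libraries read 5.81, 5.31, 4.88 and 4.34 CPM at 8 months, 3.32, 2.47, 0.999 and 1.84 with vehicle and 4.03, 3.88 and 2.55 with inhibitor. 3xTg libraries read 8.99, 8.77, 8.11 and 11.4 CPM at 8 months, 10.3, 8.71, 8.08 and 7.42 with vehicle and 10.9, 13.8, 9.99 and 10.1 with inhibitor. Every WT library of 10 months lay below every WT library of 8 months, while the 3xTg libraries of 8 months and of the vehicle group overlapped. The log2 fold change of Cd59a was 0.87 (SE 0.14) at 8 months, 1.98 (SE 0.25) with vehicle and 1.69 (SE 0.19) with inhibitor. A difference between the ages, which also differ in surgery and infusion, was not tested. The related gene Cd59b was read at 0.270 to 0.458 CPM in the means of the 6 groups, and reads that match both genes, if any, could have been lost from either.

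AA465934 (ENSMUSG00000093483.1, chromosome 11, 83291699 to 83294632, plus strand) was higher in 3xTg, with the widest WT spread of the 7 genes on the log2 scale. WT libraries read 2.70, 2.44, 2.78 and 2.36 CPM at 8 months, 3.14, 2.47, 11.6 and 2.45 with vehicle and 3.25, 13.7 and 11.4 with inhibitor. 3xTg libraries read 23.03, 20.1, 18.3 and 27.5 CPM at 8 months, 19.9, 18.7, 19.6 and 23.1 with vehicle and 22.4, 26.4, 20.9 and 20.9 with inhibitor. The 3 high WT libraries, 1 with vehicle and 2 with inhibitor, lay between the other WT libraries and the lowest 3xTg library, with no WT library in the range from 3.25 to 11.4 CPM. AA465934 differed by a log2 fold change of 3.12 (SE 0.14), 2.06 (SE 0.38) and 1.25 (SE 0.30), and 2.90 (SE 0.13) with vehicle without WT-D replicate 3. With inhibitor it lay between 0.86 and 1.61 whichever library was left out. The small nucleolar RNA Snord7 lies within its span on the same strand and held 192 counts over the 23 libraries.

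Ccl27a (ENSMUSG00000073888.13, chromosome 4, 41769467 to 41774247, minus strand) was lower in 3xTg. WT libraries read 20.1, 19.96, 17.9 and 18.4 CPM at 8 months, 17.7, 18.4, 18.3 and 17.9 with vehicle and 18.3, 17.7 and 21.99 with inhibitor. 3xTg libraries read 1.47, 1.00, 1.80 and 2.42 CPM at 8 months, 2.17, 1.90, 2.04 and 2.19 with vehicle and 2.31, 3.05, 1.91 and 1.96 with inhibitor. The strains were far apart in every library, and WT varied less than for any of the other 6 genes. Ccl27a differed by a log2 fold change of -3.52 (SE 0.18), -3.13 (SE 0.10) and -3.05 (SE 0.16). Its last 8 bases are shared with Il11ra1 on the other strand, which read between 9.38 and 11.9 CPM in the group means and was not called in any strain comparison. The gene has close copies in the mouse genome. Ccl27b, the copy in the table under that name, had 0 counts in every library, so that the counts of Ccl27a depend on how reads of the copies were assigned.

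A830036E02Rik (ENSMUSG00000084890.1, chromosome 11, 99416956 to 99425497, plus strand) was nearly absent in 3xTg. WT libraries read 29.5, 18.02, 16.5 and 15.7 CPM at 8 months, 28.7, 21.03, 12.4 and 15 with vehicle and 22.8, 11.3 and 13.3 with inhibitor. 3xTg libraries held 0 to 3 counts at 8 months, 1 to 6 with vehicle and 1 to 7 with inhibitor, at most 0.455 CPM. The count of 0, in 3xTg-8M replicate 2, allows up to 0.231 CPM. WT held 228 times the level of 3xTg at 8 months (1995 against 7 counts, exact 95% counting interval 110.5 to 567.9), 97.5 times with vehicle (55.6 to 189.3) and 85.6 times with inhibitor (47.5 to 172.2). The fitted log2 fold changes, which depend on a prior count at such low levels, were -7.64 (SE 0.38), -6.54 (SE 0.41) and -6.37 (SE 0.41), and -7.33 (SE 0.46) with inhibitor without 3xTg-S replicate 2. The gene shares 5304 bases of its span with Krt12 on the other strand. Without a stated strand setting, reads from these shared bases cannot be assigned with certainty to either gene.

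Hddc3 (ENSMUSG00000030532.6, chromosome 7, 80343104 to 80350547, plus strand) was lower in 3xTg in the 10-month libraries and overlapped between the strains at 8 months. WT libraries read 29.8, 18.7, 29.0 and 31.1 CPM at 8 months, 30.7, 29.5, 29.1 and 27.7 with vehicle and 32.5, 35.9 and 32.3 with inhibitor. 3xTg libraries read 24.0, 19.6, 29.4 and 23.8 CPM at 8 months, 9.17, 9.82, 13.0 and 13.7 with vehicle and 12.7, 14.9, 13.1 and 18.9 with inhibitor. At 8 months the strains overlapped, with the lowest library of the 8 being a WT one. At 10 months every 3xTg library lay below every WT library, and all 8 lay below all 4 of 3xTg-8M. Hddc3 differed by a log2 fold change of -0.18 (SE 0.16) at 8 months, -1.36 (SE 0.12) with vehicle and -1.18 (SE 0.12) with inhibitor. Whether the ages differed was not tested. Age, surgery, infusion and any other difference between these sets of libraries cannot be told apart. By the spans in the count table, Hddc3 shares 4890 bases with Unc45a, a chaperone of myosin, and 1451 with Man2a2, a Golgi mannosidase, both on the other strand. Unc45a read 16.4 to 21.6 CPM in WT libraries and 17.9 to 23.7 CPM in 3xTg libraries, and Man2a2 between 183.1 and 207.5 CPM in the group means. These overlaps are of whole gene spans. Without a stated strand setting, reads from the shared bases cannot be assigned with certainty to Hddc3 or to the other gene.

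The strains did not overlap for 6 of the 7 genes at 8 months, where the same was seen in 11.3% of 15483 genes tested. It was 7 of 7 with vehicle, against 7.80% of 15528 genes, and 7 of 7 with inhibitor, against 10.8% of 15664. Over all ages and treatments, the 12 libraries of 3xTg and the 11 of WT did not overlap for 6 of 7 genes, all but Hddc3, against 0.717% of 15194 genes. These counts follow from how the genes were picked. By size of the fold change, A830036E02Rik ranked 5 of all genes tested at 8 months and 3 in both 10-month comparisons. The pick had no stated threshold, and at 8 months Cd59a ranked 331 and Hddc3 ranked 5200. The 3 fold changes of a gene lay closest together for Lgr6 and Ccl27a. Those of Stbd1, Cd59a, A830036E02Rik and AA465934 kept their direction but lay farther apart, and Hddc3 stood apart between the strains at 10 months only. For Stbd1 this rested on 1 library. Without WT-D replicate 2 its value with vehicle was 2.94, beside 2.79 at 8 months and 2.63 with inhibitor. These lay closer together than those of Ccl27a.

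**Figure D2:**
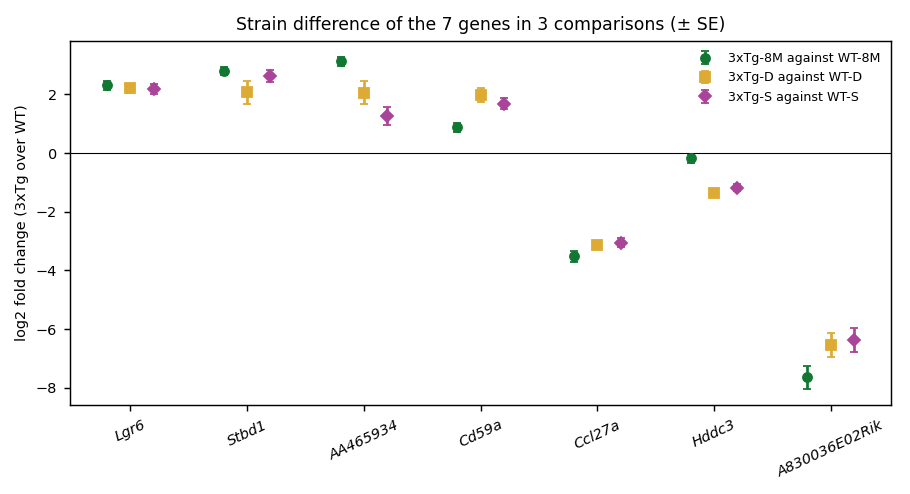
Log2 fold change of 3xTg over WT (vertical axis) for each gene in the untreated 8-month mice (circles), the vehicle mice (squares) and the inhibitor mice (diamonds), with bars of ± SE. Lgr6 lies between 2.17 and 2.30 in all 3, AA465934 spans 1.25 to 3.12, and Hddc3 is at -0.18 at 8 months but at -1.36 and -1.18 at 10 months.

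Divided by exon length, the order of the levels differed between the strains. In WT-D the mean was 7.76 ± 0.33 CPM per kb for Hddc3, 7.61 ± 0.14 for Ccl27a and 6.91 ± 6.28 for AA465934 (SD, n = 4), values that did not differ beyond their spread. Without WT-D replicate 3, AA465934 was at 3.78 ± 0.56 CPM per kb (SD, n = 3), below Hddc3 and Ccl27a. A830036E02Rik followed at 3.19 ± 1.20 CPM per kb, then Stbd1 at 1.31 ± 1.22, Cd59a at 1.19 ± 0.54 and Lgr6 at 0.558 ± 0.055. Stbd1 was at 0.702 ± 0.144 without WT-D replicate 2, within the spread of Cd59a. In 3xTg-D, AA465934 stood highest at 28.6 ± 2.72 CPM per kb, ahead of Stbd1 at 5.42 ± 0.46 and Cd59a at 4.76 ± 0.67, which lay within their spread of each other. Hddc3 at 3.03 ± 0.60 and Lgr6 at 2.59 ± 0.50 CPM per kb came next, also within their spread, followed by Ccl27a at 0.872 ± 0.057 and A830036E02Rik at 0.0320 ± 0.0206.

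The spread between mice of one group was measured as the SD of log2 CPM about the group means, within each strain, and set among 14622 genes with at least 1 CPM on average. In WT the SD was 0.85 for AA465934 and 0.71 for Stbd1, at percentiles 99.2 and 98.9, against a median of 0.13 over all genes. A830036E02Rik (0.49, percentile 96.7) and Cd59a (0.47, percentile 96.2) also varied widely in WT. Hddc3 (percentile 74.8), Lgr6 (56.0) and Ccl27a (31.4) did not stand out. In 3xTg the SD of Stbd1 was 0.13 (percentile 46.8), that of AA465934 was 0.19 (69.2) and that of Cd59a was 0.21 (73.4). Ccl27a (percentile 90.8) and A830036E02Rik (98.6) spread more in 3xTg, where they rest on 13 to 48 and 0 to 7 counts per library. Lgr6 also spread more there (SD 0.297, percentile 87.3, against 0.148 in WT), on 178 to 705 counts per library. Hddc3 did so by less (SD 0.263, percentile 83.2, against 0.215 in WT). The WT library farthest from its group mean was WT-D replicate 2 for Stbd1, with 61.6% of the sum of squared deviations, and WT-D replicate 3 for both AA465934 (41.8%, above the mean) and Cd59a (46.7%, below the mean). For A830036E02Rik it was WT-D replicate 1, with 21.7%. Deviations within WT groups (11 libraries, both values from the same mouse) correlated most in size for 3 pairs of genes. Their r is given beside that in 3xTg (12 libraries). The r was 0.75 in WT and 0.26 in 3xTg for Cd59a and A830036E02Rik, 0.67 and -0.88 for Lgr6 and Cd59a, and -0.65 and 0.60 for AA465934 and Cd59a. As the pairs were picked by their r in WT, another value in 3xTg is partly built into the choice. All 3 pairs hold Cd59a, to whose WT deviations WT-D replicate 3 gave 46.7%. A difference between the strains in r was not tested.

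**Figure D3:**
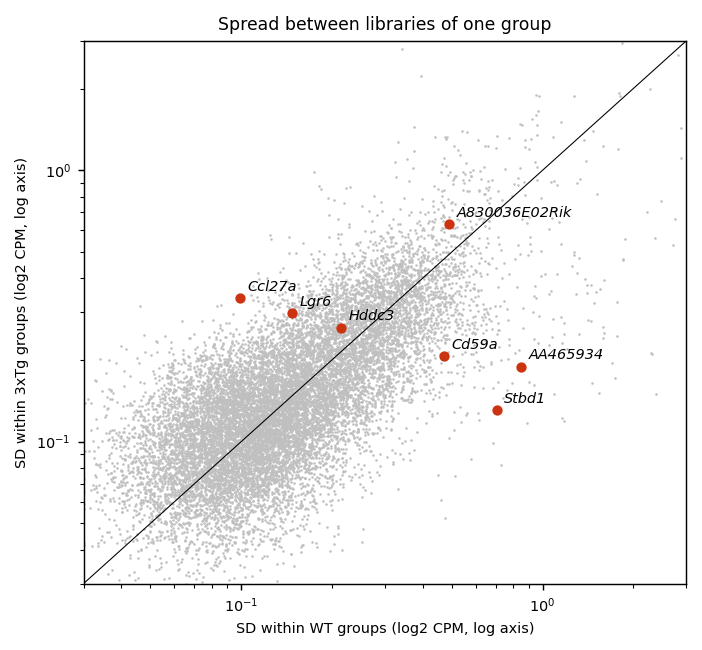
SD of log2 CPM within the groups of WT (horizontal axis) and of 3xTg (vertical axis), both on log axes, for all genes with at least 1 CPM on average (grey) and the 7 genes (red). The line marks equal spread. AA465934 (0.85 against 0.19), Stbd1 (0.71 against 0.13) and Cd59a (0.47 against 0.21) lie far to the WT side. Ccl27a (0.10 against 0.34) and Lgr6 (0.15 against 0.30) are among those on the 3xTg side.

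Treatment with the SCD inhibitor was not the contrast by which the genes were picked, and it was tested within each strain. The treated and vehicle libraries did enter the pick, so these tests are not fully independent of it. In 3xTg-S against 3xTg-D none of the 6 genes tested was called by edgeR's quasi-likelihood test, as was the case for 0 of 15530 genes (0.0%). A830036E02Rik was too low in both groups to be tested. At an unadjusted p under 0.05 there were 2 of the 6, beside 1733 genes or 11.2% of all, and DESeq2 called 14 genes, none of the 7 among them. Cd59a read 11.2 ± 1.76 against 8.62 ± 1.21 CPM in 3xTg-S against 3xTg-D (SD, n = 4 in both, log2 ratio 0.38, SE 0.13, 95% interval 0.09 to 0.67, adjusted p = 0.378 by edgeR). Hddc3 was at 14.9 ± 2.86 against 11.4 ± 2.27 CPM (log2 fold change 0.38, SE 0.15, interval 0.04 to 0.71, adjusted p = 0.419 by edgeR). Neither passed the correction, and the treated and vehicle libraries overlapped for all 6 genes, where 7.04% of genes tested did not overlap. The log2 fold change was -0.05 for Lgr6 (95% interval -0.39 to 0.29) and -0.01 for Stbd1 (-0.21 to 0.19). It was 0.16 for AA465934 (-0.05 to 0.37) and 0.16 for Ccl27a (-0.26 to 0.59). These intervals leave room for changes of up to about 1.5-fold in Ccl27a.

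In WT-S against WT-D, 0 of the 7 genes and 0 of 15724 genes (0.0%) were called by edgeR, and DESeq2 called 0 genes. At an unadjusted p under 0.05 there was 1 of the 7, Hddc3, beside 538 genes (3.42%). Hddc3 read 32.3 to 35.9 CPM in WT-S and 27.7 to 30.7 CPM in WT-D, groups that did not overlap, as in 4.88% of genes tested (log2 fold change 0.20, SE 0.07, 95% interval 0.04 to 0.35, adjusted p = 0.981 by edgeR). The mean of Hddc3 was thus higher with inhibitor than with vehicle in both strains, without passing the correction in either. The intervals of the genes with a wide WT spread were broad, from -0.32 to 2.23 for AA465934 (log2 fold change 0.96) and from -1.86 to 0.70 for Stbd1 (-0.58). The value of Stbd1 turned to 0.30 when WT-D replicate 2 was left out. Cd59a was at 0.68 (-0.06 to 1.42, adjusted p = 0.981 by edgeR), A830036E02Rik at -0.30 (-0.95 to 0.36), Ccl27a at 0.10 (-0.10 to 0.29) and Lgr6 at -0.00 (-0.34 to 0.34).

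An interaction term in a fit of the 15 libraries of 10 months tested whether the inhibitor effect depended on strain. It equals a difference between strain differences, by which the genes were picked. Its values for the 7 genes are therefore not independent of the pick. None of the 7 genes and 0 of 16262 genes (0.0%) were called by edgeR, and 0 by DESeq2, with 377 genes (2.32%) and none of the 7 at an unadjusted p under 0.05. The difference of log2 fold changes, 3xTg minus WT, was largest in size for AA465934 (-0.80, SE 0.56, 95% interval -1.98 to 0.37) and Stbd1 (0.56, SE 0.54, -0.58 to 1.70). It was smallest for Lgr6 (-0.04, SE 0.25, -0.56 to 0.48). For A830036E02Rik the interval ran from -2.17 to 2.51, since the gene had 12 and 11 counts in all in the 3xTg groups.

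The genes most alike to each of the 7 across the 23 libraries were found by Pearson's r of log2 CPM. As the libraries share 2 strains, any gene with a large strain difference scores high, and the values are given as a description. For Lgr6 they were Gm8423 (r = 0.96) and Lrrfip2 (r = 0.95), and for Stbd1 Gm8423 (r = 0.93) and Cox18 (r = 0.93), which inserts proteins into the mitochondrial inner membrane. Cd59a went with the ribosomal protein gene Rpl30 (r = 0.89) and the secreted Wnt inhibitor Sfrp1 (r = 0.88). Ccl27a went with Gm15610 and Rps13-ps1 (r = 0.98 each), and A830036E02Rik with Gm1976 and Gm15610 (r = 0.98 each). AA465934 was most alike to Tma7 (r = 0.97), a gene associated with translation, and Utp18 (r = 0.94), which acts in ribosome assembly. The same 3 WT libraries were highest for AA465934 and for both of these genes. As both were picked by r over these libraries, a shared order of the WT libraries is built into the choice. Tma7 read 29.3, 28.8 and 32.8 CPM in WT-D replicate 3 and WT-S replicates 2 and 3, and 15.8 to 20.8 CPM in the other 8 WT libraries. Utp18 read 37.4, 37.2 and 34.8 CPM in those 3 libraries and 25.5 to 32.9 CPM in the others, without a clear gap. Cox18 had its highest WT value, 14.8 CPM, in WT-D replicate 2, the library in which Stbd1 was high.

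Hddc3 was most alike to Folh1 (r = 0.93), a glutamate carboxypeptidase, and to Fah (r = 0.91), the last enzyme of tyrosine breakdown. Folh1 read 14.5 to 22.5 CPM in 3xTg-8M, 8.71 to 15.02 in 3xTg-D and 10.7 to 20.6 in 3xTg-S. The 3xTg library with the highest Hddc3 at 10 months, 3xTg-S replicate 4 at 18.9 CPM, was also the highest of Folh1 at 20.6 CPM and of Fah at 20.4 CPM. Both genes lie on chromosome 7 like Hddc3, with starts 6.38 and 4.24 Mb away. Cox18 lies on chromosome 5, 2.39 Mb from Stbd1, and Utp18 on chromosome 11, 10.57 Mb from AA465934. In all, 4 of the 14 pairs lay on the same chromosome, where 5.96% to 7.79% of the genes compared lie on the chromosome of each of the 7 genes. By Spearman's rho the same 2 genes came first for Hddc3, at rho = 0.88 and 0.86, while Gm8423 and Lrrfip2 ranked 308 and 231 for Lgr6.

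Genes around the 7 were examined within 500 kb of either end. At 8 months 5 of 87 neighbours tested were called by edgeR (5.75%, against 2.58% of all genes), with vehicle 6 of 87 (6.90%, against 1.39%) and with inhibitor 3 of 91 (3.30%, against 1.32%). Neighbours share their surroundings and are not independent of each other. Krt12, which overlaps A830036E02Rik, was lower in 3xTg in all 3, with a log2 fold change of -3.56 at 8 months (SE 0.32, adjusted p = 7.43e-05 by edgeR), -3.99 with vehicle (SE 0.52, adjusted p = 0.00157) and -3.24 with inhibitor (SE 0.53, adjusted p = 0.00929). It read 0.866 to 2.67 CPM in WT and 0 to 0.390 CPM in 3xTg, and its log2 CPM followed A830036E02Rik at r = 0.84 over the 11 WT libraries, where reads of the genes may have been counted for either. Naaa, a lysosomal amidase encoded near Stbd1, was lower in 3xTg in all 3, by log2 fold changes of -0.67 (adjusted p = 0.000907), -0.55 (adjusted p = 0.00415) and -0.59 (adjusted p = 0.000443 by edgeR), opposite in direction to Stbd1. Also called with vehicle were Scarb2 near Stbd1 (0.24, adjusted p = 0.0445), the lysosomal membrane protein that carries glucocerebrosidase, Mmp28 near AA465934 (-1.08, adjusted p = 0.0497), Gdpgp1 near Hddc3 (0.57, adjusted p = 0.0372) and Shisa4 near Lgr6 (-0.44, adjusted p = 0.0114 by edgeR). None of these 4 was called in the other strain comparisons. At 8 months their log2 fold changes were 0.10 for Scarb2, -0.52 for Mmp28, -0.11 for Gdpgp1 and -0.36 for Shisa4. All but Gdpgp1 thus had the same direction as with vehicle. No neighbour of Cd59a was called, of 7 tested in each comparison. Neither gene that overlaps Hddc3 was called. Unc45a had log2 fold changes of 0.13, 0.12 and -0.11 and Man2a2 of 0.00, -0.13 and -0.16 at 8 months, with vehicle and with inhibitor.

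**Figure D4:**
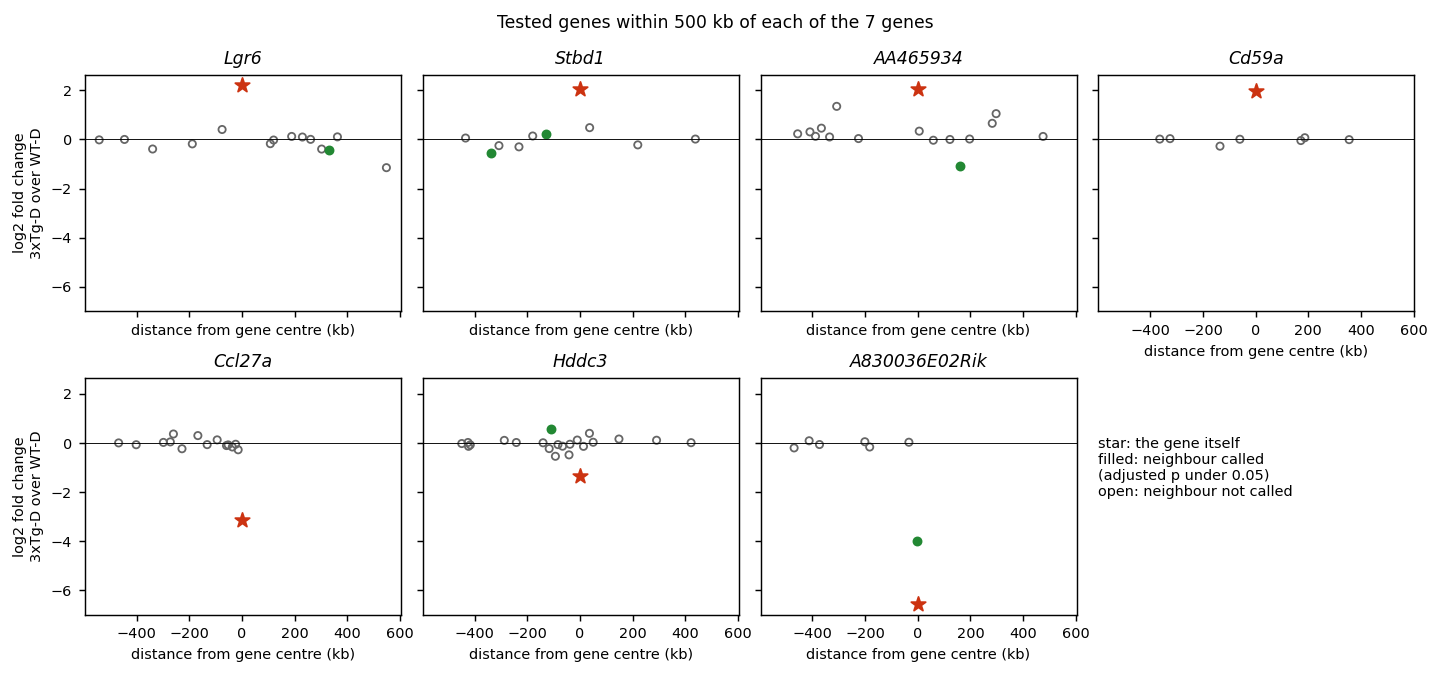
Log2 fold change of 3xTg-D over WT-D (vertical axis) of genes whose nearer end lies within 500 kb of each of the 7 genes, against the distance between gene centres in kb. The star is the gene itself, filled points are neighbours called by edgeR and open points those not called. Krt12 at -3.99 lies beside A830036E02Rik, and the other called neighbours lie between -1.08 and 0.57.

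The pathways of the coding genes were followed in lists drawn up around each of them. Of the R-spondin receptor and Wnt genes, 13 of 14 were tested and none was called in any strain comparison, with medians of -0.07, 0.04 and -0.03 on the log2 scale beside 0.01, -0.00 and 0.00 over all genes. Lgr4, the related receptor, read 38.0 to 47.0 CPM in the group means, with log2 fold changes of -0.13, 0.01 and -0.12 in the 3 strain comparisons, and Lgr5 read 1.89 to 2.46 CPM, with 0.12, 0.26 and 0.21. None of 20 glycogen genes, of 7 or 8 complement genes tested or of 14 genes for NADPH and nucleotide phosphatases was called in a strain comparison. Hddc2, a relative of Hddc3, had log2 fold changes of 0.03, 0.14 and -0.09. At an unadjusted p under 0.05 the 3 strain comparisons gave 0, 1 and 2 R-spondin genes, 3, 5 and 6 glycogen genes, 0 complement genes and 1, 2 and 2 NADPH genes, where 17.4%, 13.1% and 10.6% of all genes tested stood at such a p.

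In the chemokine list, Ccl28, the other ligand of Ccr10, was lower in 3xTg-8M, as Ccl27a was, at 0.135 to 0.308 CPM against 3.75 to 5.65 CPM in WT-8M (log2 fold change -4.40, SE 0.25, adjusted p = 1.61e-06 by edgeR). It was not tested in the 10-month strain comparisons, where the low-count filter removed it. There it read 5.41, 4.81, 0.200 and 4.59 CPM in WT-D and 0.479 to 0.589 CPM in 3xTg-D. Ccr10 itself had at most 4 counts in any library. Of the 19 genes of this list, 5, 4 and 5 were tested in the 3 strain comparisons. At an unadjusted p under 0.05 by edgeR stood 3, 2 and 2 of them. This was a larger share than over all genes tested (17.4%, 13.1% and 10.6%), on few genes, and the list was not tested as a set. No gene of the 5 lists was called between treatments or in the interaction. In bulk tissue, fewer cells that express a gene and less RNA per cell cannot be told apart.

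Gene counts came to 12.8M to 36.7M in a library of 8 months and to 13.0M to 17.6M in one of 10 months. Neuronal markers (5 of 5 above 3 counts in every library) summed to 5456 to 7086 CPM over all libraries, so that the neuronal markers of the labelled tissue were present throughout. Oligodendrocyte markers (4 of 4) summed to 4470 to 5198 CPM in 3xTg-S, above the 3034 to 3904 CPM of WT-S, and overlapped between the strains at 8 months and with vehicle. Microglial markers (4 of 4) summed to 172.9 to 271.0 CPM in 3xTg and 183.7 to 208.7 CPM in WT, and astrocyte markers (4 of 4) to 1376 to 1797 CPM and 1189 to 1481 CPM. The choroid plexus markers (6 genes, 2 above 3 counts in every library) summed to 369.2 CPM in 3xTg-8M replicate 4, 358.5 in WT-S replicate 2 and 244.1 in 3xTg-S replicate 2, against 28.6 to 122.6 CPM elsewhere. The hemoglobin and red cell markers stood at 199.2 CPM in 3xTg-S replicate 2, against 4.67 to 92.6 CPM elsewhere. That library had the highest Cd59a of all, 13.8 CPM, and the lowest Lgr6 of its group. WT-S replicate 2, by contrast, had the highest Lgr6 of its group. Without 3xTg-S replicate 2 the change of Cd59a in 3xTg-S against 3xTg-D was 0.26 on the log2 scale. The part of these markers in the values of the 7 genes was not tested.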

How the data were processed

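Hippocampal RNA of 23 mice was sequenced, 1 library per mouse number in the labels. According to the study's methods, polyadenylated RNA was prepared with adapters that carry molecular identifiers and read from 1 end. Whether identifiers were collapsed, and whether counting used strand, is not given in the sources used here. Per the study's methods and the submitters' processing notes, the authors used Trimmomatic 0.35 for trimming and STAR 2.5.1b for alignment to GRCm38 with Gencode M23. The deposited values are raw counts of reads per gene, neither normalised nor pooled by the authors. Lines that name no gene were left out, and they took 25.0% to 30.9% of a library of 8 months and 24.7% to 27.5% of one of 10 months.

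Depth ranged from 12.8M to 36.7M gene counts in untreated mice and from 13.0M to 17.6M in infused mice. CPM are relative to the TMM-scaled library size. Groups were compared in pairs, from their own libraries alone, with edgeR 4.0.16 (R 4.3.3, filterByExpr, quasi-likelihood test), and the interaction on the 15 libraries of 10 months. A gene is called where its p, adjusted by Benjamini-Hochberg over all genes tested, is under 0.05. Every adjusted p comes from this test. The code was tested on simulated data. Alternatives were DESeq2 size factors, no low-count filter, the likelihood ratio test of DESeq2 1.42.0, 1 fit of the 15 libraries, runs of 4 consecutive animal numbers as a block, each replicate left out, an unadjusted p under 0.01, a prior count of 0.5, Spearman's rho, and windows of 250 and 1000 kb. Intervals on counts pool the mice of a group and cover counting error only, not the spread between mice. As PCR reads are not independent molecules, these intervals may be too narrow even for that. P-values set the difference between groups against the spread between these mice, which is estimated with information from all genes.

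The 7 genes, the lists and the tests were chosen with earlier results of these data known. Named genes are the 7, the 2 most alike to each by Pearson's r of log2 CPM (prior count 2), overlapping genes, up to 3 called neighbours per gene in 3xTg-D against WT-D, called genes of the lists, and the closest relatives. One listed gene and one allele are not reported here. Positions and exon lengths come from Gencode M21, which held 98.6% of the genes in the table by identifier, all with the same span as in the table. Overlaps between genes follow the spans in the table.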

Additional observations from a re-analysis of the deposited data

Results flagged for a closer look

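In groups of 4 libraries, the library at one end was compared with the others by Dixon's criterion, which chance passes in about 1 of 20 groups. Of the 35 such groups, 7 passed. Stbd1 read 6.94 CPM in WT-D replicate 2, against 1.27 to 1.90 CPM in the other 3 libraries, and 1.56 CPM in WT-8M replicate 4, against 1.72 to 1.74 CPM, where the whole range of the group is narrow. AA465934 read 11.6 CPM in WT-D replicate 3, against 2.45 to 3.14 CPM. Lgr6 read 13.7 CPM in 3xTg-8M replicate 4, against 20.6 to 21.6 CPM, and that library had the highest choroid plexus markers of all. WT-S replicate 2, next in those markers, had the highest Lgr6 of its group, 4.10 CPM against 3.64 and 3.69 CPM. Hddc3 read 18.7 CPM in WT-8M replicate 2, against 29.0 to 31.1 CPM, and without this library the strain difference at 8 months was -0.31 on the log2 scale in place of -0.18. A830036E02Rik read 29.5 CPM in WT-8M replicate 1, against 15.7 to 18.02 CPM. In 3xTg-S replicate 2 it read 0.455 CPM, which is 7 counts, against 0.0675 to 0.122 CPM in the other 3 libraries. WT-S has 3 libraries and could not be examined in this way.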

How the results depend on the processing

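Strain directions of the 7 genes held under every alternative tried. Of 295 values of these genes for the inhibitor and the interaction, 270 kept their direction, 25 changed it and none became called. With the animal runs as a block, Lgr6 turned to 0.0372 in WT-S against WT-D and to 0.0163 in the interaction, and A830036E02Rik to -0.0803 in the interaction. Leaving out 1 library moved Lgr6 from -0.183 to 0.0381, Stbd1 from -0.0493 to 0.0478 and Ccl27a from -0.003 to 0.2435 in 3xTg-S against 3xTg-D. In WT-S against WT-D it moved Lgr6 from -0.0628 to 0.0357, Stbd1 from -0.82 to 0.30 and Ccl27a from -0.0031 to 0.1536. In the interaction it moved Lgr6 from -0.1797 to 0.0471, Stbd1 from -0.31 to 0.80, Ccl27a from -0.094 to 0.1725 and A830036E02Rik from -0.80 to 0.67.

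Counts over all genes moved more. Called genes were 399 at 8 months, 216 with vehicle and 206 with inhibitor, and 0 for the inhibitor in either strain and the interaction. In that order, no low-count filter, which tests more genes, gave 854, 792, 729, 112 in 3xTg, 2 in WT and 8. DESeq2 gave 681 at 8 months, 386 with vehicle and 14 for the inhibitor in 3xTg. An unadjusted p under 0.01 gave 1066, 769, 649, 391, 59 and 57. A single fit of the 10-month libraries gave 355 with vehicle, and the animal-run block gave 78 with inhibitor. Leaving out 1 library gave 227 to 449, 125 to 200, 105 to 286, 0 to 1, 0 to 1 and 0 to 0, with counts over 1.5 times lower without 3xTg-8M replicate 1 (227) or 2 (241), 3xTg-D replicate 2 (125), WT-S replicate 3 (135) and 3xTg-S replicate 1 (105) or 4 (114), and 1 gene called without 3xTg-S replicate 3 or WT-S replicate 3. The cause was not tested.

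The labels give animal numbers and no replicate numbers shared by the groups, so the runs of animal numbers at 10 months were the only block tried, and nothing in the labels says that they pair mice. A830036E02Rik in 3xTg rests on 0 to 7 counts per library, so a change there was not detectable at this depth. Called neighbours within 250 kb were 2 of 44, 4 of 45 and 1 of 46, and within 1000 kb 12 of 181, 9 of 175 and 6 of 184. With a prior count of 0.5 the WT spread of AA465934 stood at percentile 99.1.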

Other observations

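Values that belong in no comparison above were chosen after they were seen. Ccl28 in WT mice of 10 months was lowest in 3 libraries, at 0.200 CPM in WT-D replicate 3, 0.503 CPM in WT-S replicate 2 and 2.98 CPM in WT-S replicate 3, and read 3.75 to 6.51 CPM in the other 8 WT libraries. The same 3 libraries held the 3 highest WT values of AA465934, Tma7 and Utp18. WT-D replicate 3 also had the lowest Cd59a of all libraries, 0.999 CPM, and WT-S replicate 2 the lowest A830036E02Rik of WT, 11.3 CPM.

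Among the glycogen genes, Ppp1r3c, a subunit that directs protein phosphatase 1 to glycogen, came closest to a call. Its log2 fold change was 0.05 at 8 months (SE 0.07, adjusted p = 0.723 by edgeR), 0.45 with vehicle (SE 0.11, adjusted p = 0.0707 by edgeR) and 0.35 with inhibitor (SE 0.08, adjusted p = 0.0521 by edgeR).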
